A study of Mus musculus with 11 samples.

Results

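The Bcl-2 family genes examined here encode proteins that decide at the mitochondrial outer membrane whether a cell survives, including after it loses its attachment. Probe sets were taken where the platform annotation named exactly 1 of 10 listed genes: Bcl2, Bcl2l1, Mcl1, Bcl2l11, Bmf, Bid, Bad, Bak1, Bax and Bnip3l. Of these, 8 genes were found, on 23 of the 22626 probe sets that were not controls. No probe set carried the symbol Bax alone, and the 3 probe sets naming Bnip3l also named another gene, so both genes were not analysed here. Levels are log2 signals made by the authors with RMA, and each gene is represented by its brightest probe set over all arrays unless stated.

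The arrays measured RNA of mouse JB6 cells, a line used to study growth without anchorage, in 4 groups. Parental cells of JB6 clone 41-5A, given basic fibroblast growth factor (bFGF) per their labels, were sampled attached as monolayers (3 arrays) and as soft agar colonies harvested on day 7 (3 arrays, 10 ng/ml bFGF). RT101 cells, a tumour variant of JB6 that received no bFGF, were sampled as monolayers (2 arrays) and as day 7 colonies (3 arrays). All 4 groups are JB6-derived and the medium was stated once for JB6 cells, with 4% serum. For the bFGF-labelled monolayers the sources state neither dose nor exposure time, and no untreated parental cells were among the arrays. RT101 and bFGF-treated cells therefore differ in both line and growth factor, which cannot be told apart. The 2 kinds of cell are called the RT101 and bFGF-JB6 lines here. The labels do not say whether arrays came from separate cultures, so p-values measure only the spread between these arrays, which may be technical.

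Array medians lay between 5.82 and 5.95, and arrays of one group correlated at 0.989 to 0.998. The 3' Gapdh probe set stood 0.19 above the 5' one on bFGF-JB6 monolayer replicate 1 and 0.35 above it on bFGF-JB6 colony replicate 3, against -0.08 to -0.01 on the other 9 arrays. Results that these 2 arrays change are given without them. JB6 cells came from mouse epidermis, but 0 of 9 keratinocyte markers were called by limma in either colony comparison (1 in bFGF-JB6 and 0 in RT101 cells had an unadjusted p under 0.05). Their group means ran only from 2.39 (Cdh1) to 5.43 (Krt8), with summed linear signals of 141 to 167 over the arrays. Fibroblast markers differed widely in level. Vim lay between 12.87 and 13.16 in group means, but Thy1 only between 3.43 and 3.67. Dcn ran from 4.51 in RT101 monolayers to 10.63 in bFGF-JB6 monolayers. Of 8 fibroblast markers 4 rose and 2 fell in bFGF-JB6 colonies and 5 rose and 0 fell in RT101 colonies. Of all genes, 14.1% rose and 15.3% fell in bFGF-JB6 colonies, and 17% rose and 15.4% fell in RT101 colonies. Pdgfrb rose by 0.35 in bFGF-JB6 and 3.07 in RT101 colonies, and Dcn fell by 0.97 and rose by 1.34. The summed linear signals of the 8 were 14814 to 15601 in monolayers and 13104 to 14528 in colonies of bFGF-JB6 cells, and 11723 to 12377 in monolayers and 18550 to 19211 in colonies of RT101 cells. These sums moved in the same direction as Bcl2l11 in each line. The median log2 change of the 8 markers, however, was 0.26 in bFGF-JB6 colonies, where Bcl2l11 fell, and 0.95 in RT101 colonies. No endothelial marker (of 5) or lymphocyte marker (of 4 measured) was called in colonies (0 and 0 of the endothelial and 1 and 0 of the lymphocyte markers had an unadjusted p under 0.05). Of 7 macrophage markers, 3 were higher in bFGF-JB6 colonies and 2 in RT101 colonies (14.1% and 17% of all genes), among them Cd68, 1.86 higher in bFGF-JB6 colonies. Their summed linear signals were 568 to 585 in monolayers and 800 to 862 in colonies of bFGF-JB6 cells, and 257 to 259 and 302 to 330 in RT101 cells. Their defining genes Ptprc (2.34 to 2.53) and Adgre1 (3.02 to 3.31) were near the bottom of the scale. The part of these markers in the results below was not tested.

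As background, the family has 3 roles. Pro-survival proteins (Bcl-2, Bcl-xL from Bcl2l1, Mcl-1) hold the pore-forming effectors Bak and Bax in check. BH3-only proteins (Bim from Bcl2l11, Bmf, Bid, Bad) sense stress and bind the pro-survival proteins or the effectors. Death of cells that lose contact with the matrix is called anoikis. Detachment is known to raise Bim in epithelial cells and to release Bmf from the actin-bound motor that holds it, while survival signalling through ERK and Akt restrains Bim and Bad.

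Bcl2l11 moved in opposite directions in the 2 lines, Bid rose in both, and the pro-survival genes moved little on going from monolayer to colonies. In bFGF-JB6 colonies against their monolayers 1 member rose, 2 fell and 5 did not pass the test. That is 37.5% of the 8 members, against 29.4% of all 12393 genes (14.1% higher, 15.3% lower), and the members' median log2 change was -0.15 against 0.03 for all genes. In RT101 colonies 4 members rose, 1 fell and 3 did not pass (62.5%, against 32.4% of all genes, 17% higher and 15.4% lower), with a median change of 0.25 against -0.01. Without RT101 monolayer replicate 1, or without replicate 2, 3 members passed in RT101 colonies, and without any 1 of the arrays compared 3 to 4 did. For the difference between the 2 colony changes, 2 of 8 members passed (25%), both higher, against 27.7% of all genes (15% higher, 12.7% lower), so this share lay near the background. Calls are at a Benjamini-Hochberg adjusted p of 0.05 from limma.

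**Figure D1:**
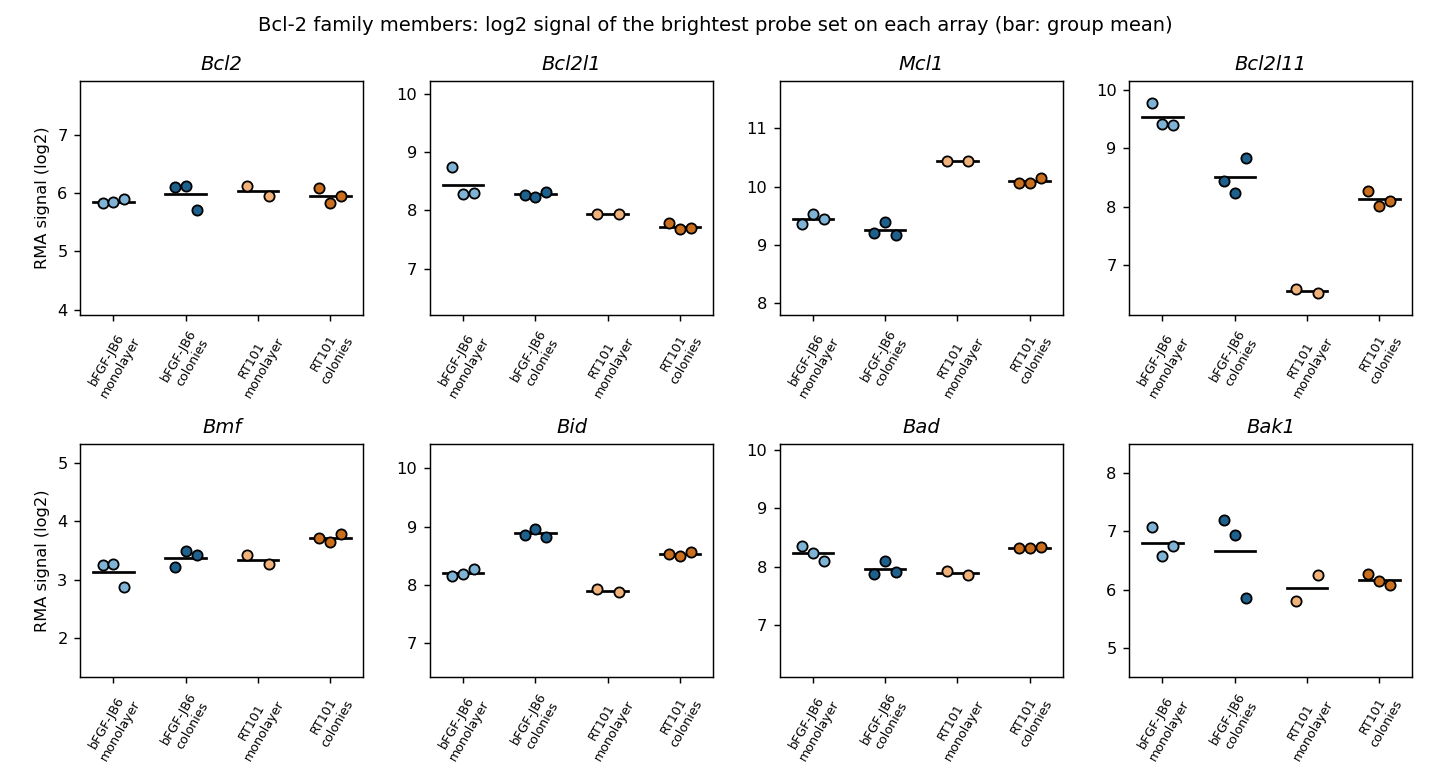
Log2 RMA signal (vertical axis) of the 8 members on each of the 11 arrays, by group, with bars for the group means; panels share the same height in log2 units. Bcl2l11 ran from 6.53 to 9.78 over the arrays, while Bcl2 stayed between 5.71 and 6.12.

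Bcl2l11, at chr2:128126038-128162547 on the plus strand (GRCm38.p6), encodes Bim, the BH3-only protein most tied to anoikis. The 2 annotated starts have the 250-base upstream windows printed here because this gene's RNA moved most among the members, and Bid's window is shown beside them because its RNA rose in both lines. RefSeq windows lie at chr2:128125788-128126037 and chr2:128127325-128127574 (plus strand) for Bcl2l11 and at chr6:120916825-120917074 (minus strand) for Bid. Capitals mark matches, on either strand, to the FOXO motif GTAAACA and the Sp1 motif GGGCGG.
Bcl2l11 window 1: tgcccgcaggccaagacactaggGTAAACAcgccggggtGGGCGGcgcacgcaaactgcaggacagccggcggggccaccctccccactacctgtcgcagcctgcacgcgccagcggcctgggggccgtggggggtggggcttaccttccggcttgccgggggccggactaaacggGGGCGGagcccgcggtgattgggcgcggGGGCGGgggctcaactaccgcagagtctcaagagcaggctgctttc
Bcl2l11 window 2: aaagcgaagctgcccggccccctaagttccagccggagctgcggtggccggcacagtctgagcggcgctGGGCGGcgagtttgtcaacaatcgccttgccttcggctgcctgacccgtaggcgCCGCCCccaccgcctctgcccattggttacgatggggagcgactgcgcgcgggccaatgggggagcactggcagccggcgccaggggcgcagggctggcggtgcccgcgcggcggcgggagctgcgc
Bid: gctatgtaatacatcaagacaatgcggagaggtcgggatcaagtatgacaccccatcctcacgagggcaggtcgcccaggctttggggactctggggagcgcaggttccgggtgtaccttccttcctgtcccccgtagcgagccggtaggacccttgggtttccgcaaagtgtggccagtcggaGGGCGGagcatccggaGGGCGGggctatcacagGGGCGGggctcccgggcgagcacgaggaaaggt
The first Bcl2l11 window held 1 FOXO match, starting at position -227 counted back from the annotated start, and 3 Sp1 matches. The second held no FOXO match and 2 Sp1 matches, and the Bid window held 3 Sp1 matches and no FOXO match. Over all 32851 windows, 3.17% held the FOXO motif and 32.74% the Sp1 motif. The E-box CACGTG (6.02% of windows) and the AP-1 motif TGAGTCA (4.46%) had no match in these 3 windows. These windows were rich in G and C, at 72.0%, 73.2% and 63.6%, against a median of 52.4% over all windows. A match is a description of the letters, not evidence of binding.

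Bcl2l11 signals were 9.78, 9.42 and 9.41 in the bFGF-JB6 monolayers and 8.44, 8.24 and 8.84 in the bFGF-JB6 colonies. In RT101 cells they were 6.59 and 6.53 in the monolayers and 8.27, 8.01 and 8.10 in the colonies. Every bFGF-JB6 colony array lay under every monolayer array of that line, and every RT101 colony array lay over both RT101 monolayer arrays. Such separation was common. Of all genes, 37.8% did not overlap in the bFGF-JB6 comparison (19.1% lower in colonies) and 56.1% in the RT101 comparison (27.9% higher in colonies). The signal fell by 1.03 in bFGF-JB6 colonies (SE 0.14, 95% interval -1.34 to -0.72, limma adjusted p = 0.000102), a 2.05-fold decrease. It rose by 1.57 in RT101 colonies (SE 0.16, interval 1.22 to 1.91, adjusted p = 4.83e-06), a 2.96-fold increase. The difference between the 2 changes was 2.60 (SE 0.22, interval 2.13 to 3.07, adjusted p = 9.45e-07). Only 67 of 12393 genes (0.541%) had a larger difference between the lines, in either direction. In bulk RNA such as this, fewer cells of a kind and less RNA per cell cannot be told apart.

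The other 4 Bcl2l11 probe sets followed the same course. Tested as separate probe sets, all 5 fell in bFGF-JB6 colonies, by log2 changes of -1.12 to -0.65 (background 26.5% of probe sets called). All 5 were positive in RT101 colonies, at 0.81 to 1.57, and 4 of them passed the test (background 28.5%). The difference between lines passed for all 5, at 1.54 to 2.64 (background 23.2%). The weakest of them read 5.20, 6.12 and 6.36 in the bFGF-JB6 monolayers, 5.20, 5.30 and 3.97 in the bFGF-JB6 colonies, 3.27 and 3.63 in the RT101 monolayers and 4.43, 4.60 and 4.52 in the RT101 colonies. Its lowest value in bFGF-JB6 colonies and its lowest in bFGF-JB6 monolayers came from the 2 arrays with raised 3' Gapdh signal. The 5 probe sets read RNA of 1 gene on the same arrays and are not replicates. Without the 2 arrays Bcl2l11 fell by 1.08 in bFGF-JB6 colonies (limma adjusted p = 3.21e-05), and the difference between lines was 2.65.

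**Figure D2:**
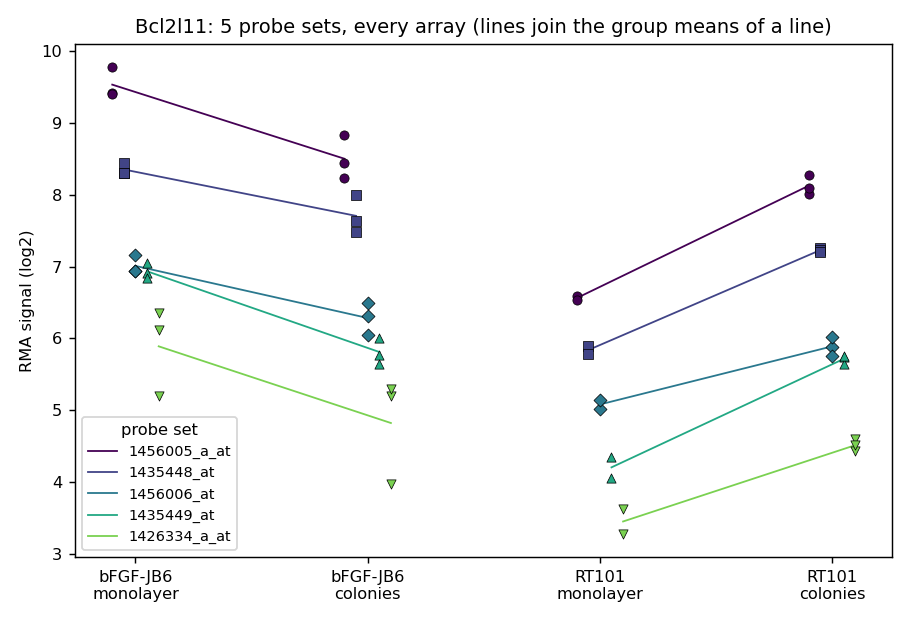
Log2 RMA signal (vertical axis) of the 5 Bcl2l11 probe sets on every array, by group; lines join the monolayer and colony means within a cell line. All 5 lines go down in bFGF-JB6 cells and up in RT101 cells.

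Bid, at chr6:120893119-120917062, encodes a BH3-only protein that caspase-8 cuts to link death receptors to the mitochondrion. Its signals were 8.15, 8.18 and 8.27 in bFGF-JB6 monolayers and 8.86, 8.96 and 8.83 in the colonies. RT101 monolayers read 7.92 and 7.88 and RT101 colonies 8.54, 8.50 and 8.56. Colony arrays lay above all monolayer arrays in each of the lines, as they did for 18.7% of all genes in bFGF-JB6 and 27.9% in RT101 cells. Bid rose by 0.68 in bFGF-JB6 colonies (SE 0.077, limma adjusted p = 1.61e-05), 1.60-fold, and by 0.63 in RT101 colonies (SE 0.086, adjusted p = 6.41e-05), 1.55-fold. The changes differed by -0.05 (RT101 minus bFGF-JB6), with a 95% interval of -0.30 to 0.20. Of all genes, 706 (5.70%) rose in both lines, and Bid was the 1 member among them. Its second probe set rose in bFGF-JB6 colonies and gave 0.44 in RT101 colonies with an adjusted p of 0.052.

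Bad, at chr19:6941861-6951905, encodes a BH3-only protein that survival kinases inactivate by phosphorylation. It read 8.35, 8.24 and 8.09 in bFGF-JB6 monolayers and 7.88, 8.09 and 7.91 in the colonies, and the 2 groups overlapped. It read 7.92 and 7.87 in RT101 monolayers and 8.32, 8.33 and 8.33 in RT101 colonies, with every colony array above both monolayer arrays. The same held for 27.9% of all genes. Bad rose by 0.43 in RT101 colonies (SE 0.10, limma adjusted p = 0.00395), 1.35-fold, and fell by 0.27 in bFGF-JB6 colonies (SE 0.090, adjusted p = 0.0384). The difference between lines was 0.70 (SE 0.13, adjusted p = 0.00142). The fall in bFGF-JB6 colonies was lost in 10 of 18 alternatives, among them leaving out monolayer replicate 1 (-0.21, adjusted p = 0.145) or 2 (0.0931), colony replicate 1 (0.114) or 3 (0.0797), or the 2 arrays with raised 3' signal (-0.18, adjusted p = 0.204). Both Bad probe sets fell in bFGF-JB6 colonies, by 0.50 and 0.27, and rose in RT101 colonies, by 0.74 and 0.43. Bcl2l11 and Bad were the members among the 353 genes (2.85%) that fell in bFGF-JB6 colonies and rose in RT101 colonies.

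Bmf, at chr2:118528757-118549686, had the lowest signals among the members, between 2.88 and 3.78 over the arrays, where the array lower quartiles were 3.78 to 3.91. RT101 colonies read 3.71, 3.65 and 3.78 and RT101 monolayers 3.42 and 3.27, so the groups did not overlap. Of all genes, 27.9% were higher in RT101 colonies without overlap. Bmf rose by 0.37 in RT101 colonies (SE 0.13, limma adjusted p = 0.0396). That call was lost when any single RT101 array was left out (adjusted p = 0.0590 to 0.236). In bFGF-JB6 colonies the change was 0.24 (adjusted p = 0.140).

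**Figure D3:**
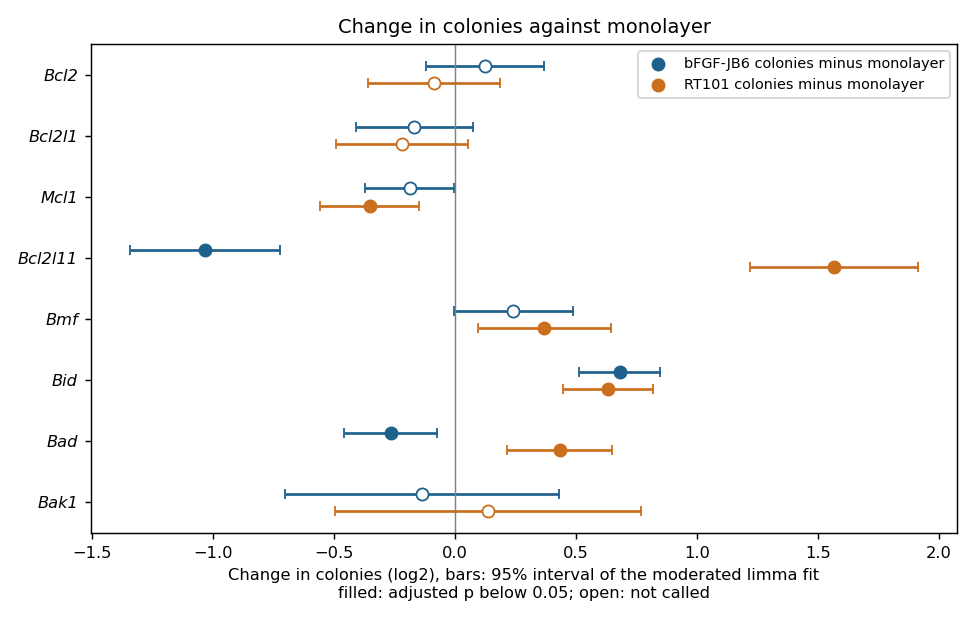
Log2 change in colonies against monolayer (horizontal axis) for each member and line, with 95% intervals from limma; filled points passed the test. Bcl2l11 lies at -1.03 in bFGF-JB6 cells and 1.57 in RT101 cells, while the Bid points, 0.68 and 0.63, nearly coincide.

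Mcl1, at chr3:95656944-95663179, encodes a short-lived pro-survival protein that binds Bim. Its signals were 9.35, 9.53 and 9.45 in bFGF-JB6 monolayers, 9.21, 9.39 and 9.18 in bFGF-JB6 colonies, 10.45 and 10.45 in RT101 monolayers and 10.07, 10.06 and 10.15 in RT101 colonies. All RT101 arrays lay above all bFGF-JB6 arrays. The share of all genes higher without overlap in RT101 cells was 33.4% in monolayers and 26.1% in colonies. Mcl1 fell by 0.35 in RT101 colonies (SE 0.095, limma adjusted p = 0.0108), and changed by -0.19 in bFGF-JB6 colonies (adjusted p = 0.125), where the groups overlapped. The RT101 call was lost without either RT101 monolayer array (adjusted p = 0.0604 without replicate 1 and 0.0580 without replicate 2). Of the 6 Mcl1 probe sets tested separately in RT101 colonies, all were negative (-0.38 to -0.08) and 1 passed.

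Bcl2l1, at chr2:152758732-152833803, encodes the pro-survival protein Bcl-xL. It read 8.75, 8.28 and 8.30 in bFGF-JB6 monolayers, 8.27, 8.23 and 8.32 in bFGF-JB6 colonies, 7.94 and 7.94 in RT101 monolayers and 7.78, 7.68 and 7.70 in RT101 colonies. The high value of the first monolayer array came from one with raised 3' Gapdh signal. Colonies differed from monolayers by -0.17 in bFGF-JB6 cells (limma adjusted p = 0.309) and -0.22 in RT101 cells (adjusted p = 0.225). Without the 2 raised arrays the RT101 change of -0.22 passed the test (adjusted p = 0.0371). Neither is an RT101 array, so the change stayed the same and only its test moved. Of the 4 Bcl2l1 probe sets tested separately, 2 were positive in RT101 colonies (-0.22 to 0.18) and 1 in bFGF-JB6 colonies (-0.17 to 0.05). None was called in either line (background 28.5% and 26.5% of probe sets called).

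Bcl2, at chr1:106538176-106714290, the founding pro-survival member, lay between 5.71 and 6.12 on all 11 arrays and all 4 groups overlapped with at least 1 other. Its colony changes were 0.12 in bFGF-JB6 cells (limma adjusted p = 0.475, 95% interval -0.12 to 0.37) and -0.09 in RT101 cells (adjusted p = 0.686). Bcl2 is the member with 1 probe set among the pro-survival genes.

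Bak1, at chr17:27019812-27028627, encodes the pore-forming effector Bak. It read 7.08, 6.57 and 6.75 in bFGF-JB6 monolayers, 7.20, 6.94 and 5.86 in bFGF-JB6 colonies, 5.81 and 6.25 in RT101 monolayers and 6.27, 6.15 and 6.09 in RT101 colonies. Replicate 3 of the bFGF-JB6 colonies, with raised 3' Gapdh signal, lay under the others of its group. The changes in colonies were -0.14 (SE 0.26, limma adjusted p = 0.758) in bFGF-JB6 cells and 0.14 (adjusted p = 0.795) in RT101 cells. Without the 2 raised arrays the bFGF-JB6 change turned to 0.40 (adjusted p = 0.0645). The dimmer Bak1 probe set gave 0.23 in bFGF-JB6 colonies (limma adjusted p = 0.560) and 0.42 in RT101 colonies (adjusted p = 0.316).

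Set line against line, the members differed widely in monolayers, with Mcl1 higher and Bcl2l11 far lower in RT101 cells. In monolayers 1 member was higher and 5 were lower in RT101 than in bFGF-JB6 cells, 75% of the 8, against 44.4% of all genes (23.2% higher, 21.2% lower). Without RT101 monolayer replicate 2, 3 members passed. In colonies 3 were higher and 3 lower, again 75%, against 43.3% (22.7% higher, 20.7% lower). Mcl1 was 0.999 higher in RT101 monolayers (limma adjusted p = 1.15e-06), 2.00-fold, and 0.83 higher in RT101 colonies (adjusted p = 2.36e-06), 1.78-fold. All 6 Mcl1 probe sets were higher in RT101 cells in monolayers (0.41 to 0.999, background 40.2% called) and in colonies (0.27 to 0.87, background 39.6%).

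Bcl2l11 differed most between the lines in monolayers, at -2.97 (RT101 minus bFGF-JB6, SE 0.16, 95% interval -3.32 to -2.63, limma adjusted p = 4.48e-09), 7.86-fold lower in RT101. That value is the largest of the 5 probe sets, which tested separately were all called lower, at -2.97 to -1.93 (background 40.2% called). In colonies the difference was -0.38 (adjusted p = 0.0497), where the groups overlapped. There all 5 probe sets were negative, at -0.48 to -0.10, and 2 passed (background 39.6%). The colony call of the brightest probe set was lost in 10 of 18 alternatives, with values of -0.51 to -0.21. Among them were leaving out bFGF-JB6 colony replicate 1 (adjusted p = 0.0658) or 3 (-0.21, adjusted p = 0.206) and RT101 colony replicate 2 (0.160) or 3 (0.115), and without the 2 raised arrays it was -0.21 (adjusted p = 0.109). The order of Bcl2l11 levels was bFGF-JB6 monolayer, bFGF-JB6 colonies, RT101 colonies and RT101 monolayer.

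Bcl2l1 was lower in RT101 cells by 0.50 in monolayers (limma adjusted p = 0.00470) and by 0.55 in colonies (adjusted p = 0.00107). Of its 4 probe sets, 2 were called lower in each case. Bid was lower in RT101 cells by 0.30 in monolayers (adjusted p = 0.0105) and by 0.35 in colonies (adjusted p = 0.00189). Its monolayer call was lost with the mean of its probe sets (adjusted p = 0.0681) or without RT101 monolayer replicate 2 (adjusted p = 0.0708). In order, Bid was highest in bFGF-JB6 colonies, then RT101 colonies, bFGF-JB6 monolayers and RT101 monolayers, and each neighbouring pair differed (adjusted p = 0.00189, 0.00338 and 0.0105).

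Bad was 0.33 lower in RT101 monolayers (limma adjusted p = 0.0142) and 0.37 higher in RT101 colonies (adjusted p = 0.00409). The monolayer call was lost without bFGF-JB6 monolayer replicate 1 (adjusted p = 0.0529) or RT101 monolayer replicate 2 (adjusted p = 0.0878). Bak1 was 0.77 lower in RT101 monolayers (adjusted p = 0.0478), a call lost in 10 of 17 alternatives, including without bFGF-JB6 monolayer replicate 1 (adjusted p = 0.151) or 3 (0.0801) or RT101 monolayer replicate 1 (0.307) or 2 (0.0539). In colonies Bak1 differed by -0.49 (adjusted p = 0.156), by -0.90 (adjusted p = 0.000404) without bFGF-JB6 colony replicate 3 and by -0.90 (adjusted p = 0.000225) without the 2 raised arrays. These values rest on the brighter of 2 Bak1 probe sets, which correlated at 0.43. The dimmer one gave -0.22 in monolayers (limma adjusted p = 0.589) and -0.03 in colonies (adjusted p = 0.941). Bmf was 0.34 higher in RT101 colonies (adjusted p = 0.0280), and the call was lost without bFGF-JB6 colony replicate 1 (0.114) or RT101 colony replicates 1 (0.0639) or 3 (0.0939). For Bcl2 and Bak1 no pair of neighbouring groups in the order of levels passed the test. Mcl1 levels ran from RT101 monolayers through RT101 colonies and bFGF-JB6 monolayers to bFGF-JB6 colonies, and the last pair did not pass (adjusted p = 0.125).

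**Figure D4:**
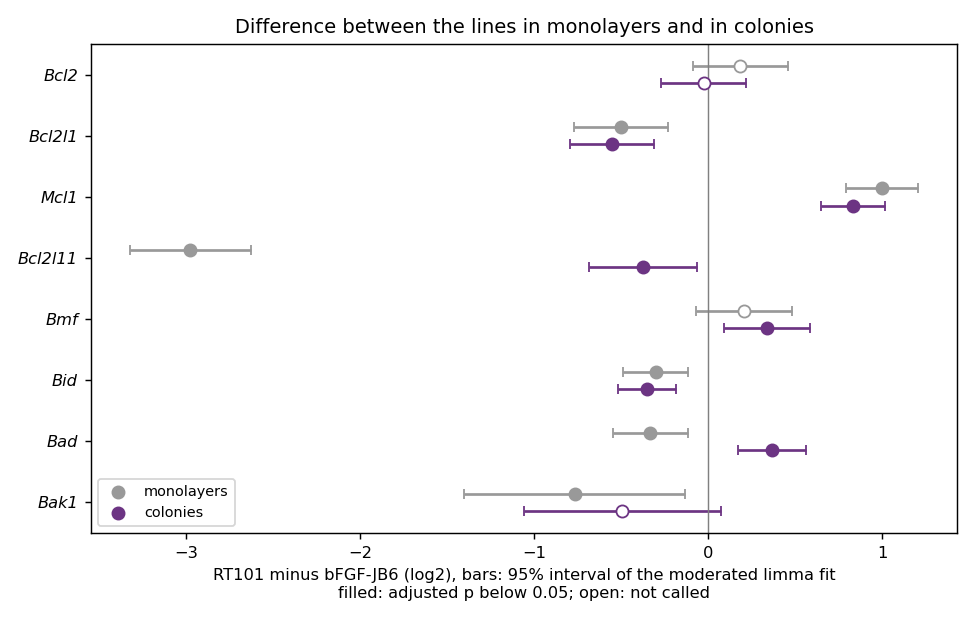
Log2 difference RT101 minus bFGF-JB6 (horizontal axis) for each member in monolayers and in colonies, with 95% intervals from limma; filled points passed the test. Bcl2l11 lies at -2.97 in monolayers and -0.38 in colonies, and Mcl1 lies at 0.999 and 0.83.

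The 3 members whose group means spanned the widest ranges were Bcl2l11 (2.97), Mcl1 (1.19) and Bid (0.98). The genes most like Bcl2l11 over the 11 arrays, by Pearson correlation of log2 signals, were Yipf3 (0.991), Bphl (0.990) and Miga2 (0.988). Mcl1 was most like Prkar2a (0.987), Tasor2 (0.987) and Prps1l3 (0.985), and Bid most like B3gnt9 (0.983), Mgp (0.982) and Mettl27 (0.977). These arrays fall into 4 groups, and the points of a group share its mean, so these values are a description with no test.

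The genes of other lists are given as log2 changes with moderated standard errors of 0.076 to 0.25, and "passed" or "called" refers to the same limma test. Over all these lists 102 genes were measured, of which 38 were called in bFGF-JB6 colonies (37.3%, against 29.4% of all genes) and 49 in RT101 colonies (48.0%, against 32.4%). The median changes of all genes were 0.03 and -0.01. Among the rest of the family, 13 of 18 listed genes were measured. In bFGF-JB6 colonies 4 rose and 3 fell, and in RT101 colonies 2 rose and 2 fell, with median changes of 0.20 and -0.07. Bbc3, which encodes the BH3-only protein Puma, gave 0.24 in bFGF-JB6 and -0.85 in RT101 colonies, a difference of -1.09. The pro-survival gene Bcl2l2 gave 0.47 and -0.65, and its bFGF-JB6 value turned to -0.011 with the mean of its probe sets. Bnip3, encoding a mitophagy receptor with a BH3 region, rose by 0.78 and 0.38, and Bok, a Bak-like gene, by 0.28 and 0.48. The Bbc3 rise in bFGF-JB6 colonies was lost without monolayer replicate 2 or 3 or colony replicate 1 or 3 (adjusted p = 0.0512 to 0.122), and that of Bok without monolayer replicate 3 (0.0975). The Bnip3 rise in RT101 colonies was lost without monolayer replicate 1 (0.165) or colony replicate 1 (0.0645).

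Of 18 measured apoptosome and caspase genes, 1 rose and 7 fell in bFGF-JB6 colonies, and 4 rose and 5 fell in RT101 colonies (medians -0.19 and -0.02), against 29.4% and 32.4% of all genes called, of which 15.3% fell in bFGF-JB6 and 15.4% in RT101 colonies. Casp12, a caspase of the endoplasmic reticulum, rose by 2.11 in RT101 and 0.34 in bFGF-JB6 colonies. Birc3, an inhibitor of apoptosis, rose by 1.54 in RT101 colonies and gave 0.11 in bFGF-JB6 colonies, which did not pass. A dimmer Birc3 probe set (mean signal 3.45) gave 0.05 in RT101 colonies (limma adjusted p = 0.863). Birc5, encoding survivin, whose RNA is also high in dividing cells, fell by 1.28 in bFGF-JB6 colonies and gave 0.12 in RT101 colonies, which did not pass. Htra2, a mitochondrial protease, fell by 0.75 and 0.53. The smaller Casp12 rise, in bFGF-JB6 colonies, was lost without monolayer replicate 1 or 2 or colony replicate 1 or 2 (adjusted p = 0.0603 to 0.108).

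Of 13 death receptor genes, 3 rose and 2 fell in bFGF-JB6 colonies and 4 rose and 2 fell in RT101 colonies (medians 0.08 and 0.11). Of all genes, 29.4% were called in bFGF-JB6 and 32.4% in RT101 colonies. Fas, whose receptor engages caspase-8 upstream of Bid, rose by 0.58 and 1.38. Cflar, the caspase-8 inhibitor, fell by 1.66 in bFGF-JB6 and 0.42 in RT101 colonies, where the call was lost without monolayer replicate 2 (adjusted p = 0.152) or colony replicate 2 (0.0766) and with the mean of probe sets (0.226). Tnfrsf21 fell by 0.62 and 1.02, and Tnfrsf1a rose by 0.36 and 0.67. A dimmer Tnfrsf21 probe set (mean signal 5.29) gave 0.02 in bFGF-JB6 colonies (limma adjusted p = 0.902) and -0.37 in RT101 colonies (adjusted p = 0.0200).

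Of 26 anoikis signalling genes, 4 rose and 4 fell in bFGF-JB6 colonies and 6 rose and 3 fell in RT101 colonies (medians 0.09 and 0.12). These counts lay near the 29.4% and 32.4% of all genes called. Foxo3, a transcription factor known to activate the Bim gene, rose by 1.20 in RT101 colonies and gave 0.19 in bFGF-JB6 colonies, which did not pass. Its group means were 8.02 in monolayers and 8.21 in colonies of bFGF-JB6 cells, and 6.91 and 8.11 in those of RT101 cells. A second Foxo3 probe set (mean signal 6.85) was called higher in both lines. It rose by 0.34 in bFGF-JB6 colonies (limma adjusted p = 0.00877) and by 0.82 in RT101 colonies (adjusted p = 2.5e-05). A dimmer one (mean signal 3.92) gave -0.18 and 0.19 and passed in neither. Foxo1, the other FOXO gene of the list, was named after its values were seen. It rose by 1.02 in bFGF-JB6 colonies (limma adjusted p = 1.3e-05), where Bcl2l11 fell, and gave 0.28 in RT101 colonies (adjusted p = 0.113). The Foxo1 difference between lines was -0.74 (adjusted p = 0.00485). Whether either FOXO gene had a part in the Bcl2l11 changes was not tested. Cav1, encoding caveolin-1, fell by 1.44 in bFGF-JB6 colonies and rose by 0.63 in RT101 colonies. Tle1, a co-repressor, fell by 1.03 and 0.40. Its second probe set gave -0.10 in bFGF-JB6 colonies (adjusted p = 0.479), where the mean of both gave -0.56, and -0.50 in RT101 colonies. The RT101 call of the brighter probe set was lost without monolayer replicate 1 (adjusted p = 0.225) or any of colony replicates 1 to 3 (0.0557 to 0.0730). Tle5 rose by 1.29 in RT101 colonies and gave 0.49 in bFGF-JB6 colonies, which passed without colony replicate 3 (0.81, adjusted p = 0.00140). Of 8 genes for Mcl-1 and Bim turnover, 1 rose and 1 fell in bFGF-JB6 and 1 rose and 2 fell in RT101 colonies. The background was again 29.4% and 32.4% of all genes called. Usp9x, a deubiquitinase of Mcl-1, fell by 0.72 and 0.73, and Btrc, a ubiquitin ligase subunit, rose by 0.46 and 0.43, the RT101 call being lost without monolayer replicate 1 (adjusted p = 0.0955) or colony replicate 1 (0.0519). Huwe1, a ubiquitin ligase of Mcl-1, fell by 0.42 in RT101 colonies, a call lost without monolayer replicate 2 (0.104). A dimmer Huwe1 probe set was called higher in RT101 colonies (0.41) and in bFGF-JB6 colonies (0.69), where the brightest gave -0.13 and did not pass. With the mean of probe sets Usp9x and Btrc passed in neither line (limma adjusted p = 0.155 and 0.0814 for Usp9x, 0.195 and 0.136 for Btrc).

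Of 16 mitophagy and fission genes, 6 rose and 2 fell in bFGF-JB6 colonies and 10 rose and 3 fell in RT101 colonies (medians 0.16 and 0.44), where 14.1% and 17% of all genes rose. Gabarap and Gabarapl1, of the autophagosome membrane, rose by 0.58 and 1.15 in bFGF-JB6 and by 1.30 and 0.52 in RT101 colonies. Fundc1, a mitophagy receptor, rose by 0.84 and 0.90, and Fis1 rose by 0.97 in RT101 colonies. Of 9 channel and carrier genes of the mitochondrial membranes, 1 rose and none fell in bFGF-JB6 colonies and 2 rose and 4 fell in RT101 colonies (medians -0.09 and -0.22). Among all genes, 29.4% were called in bFGF-JB6 and 32.4% in RT101 colonies. Hk2, a hexokinase that binds mitochondria, rose by 0.83 in bFGF-JB6 and fell by 1.37 in RT101 colonies. Tspo rose by 1.33 and Hk1 by 0.85 in RT101 colonies, and Ppif fell by 0.62 there. Ppif gave -0.26 in bFGF-JB6 colonies and passed without colony replicate 2 (-0.35, adjusted p = 0.0223). A dimmer Ppif probe set (mean signal 4.88) was called lower on all arrays in bFGF-JB6 colonies (-0.64, limma adjusted p = 0.00319) and in RT101 colonies (-0.94, adjusted p = 0.000405).

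**Figure D5:**
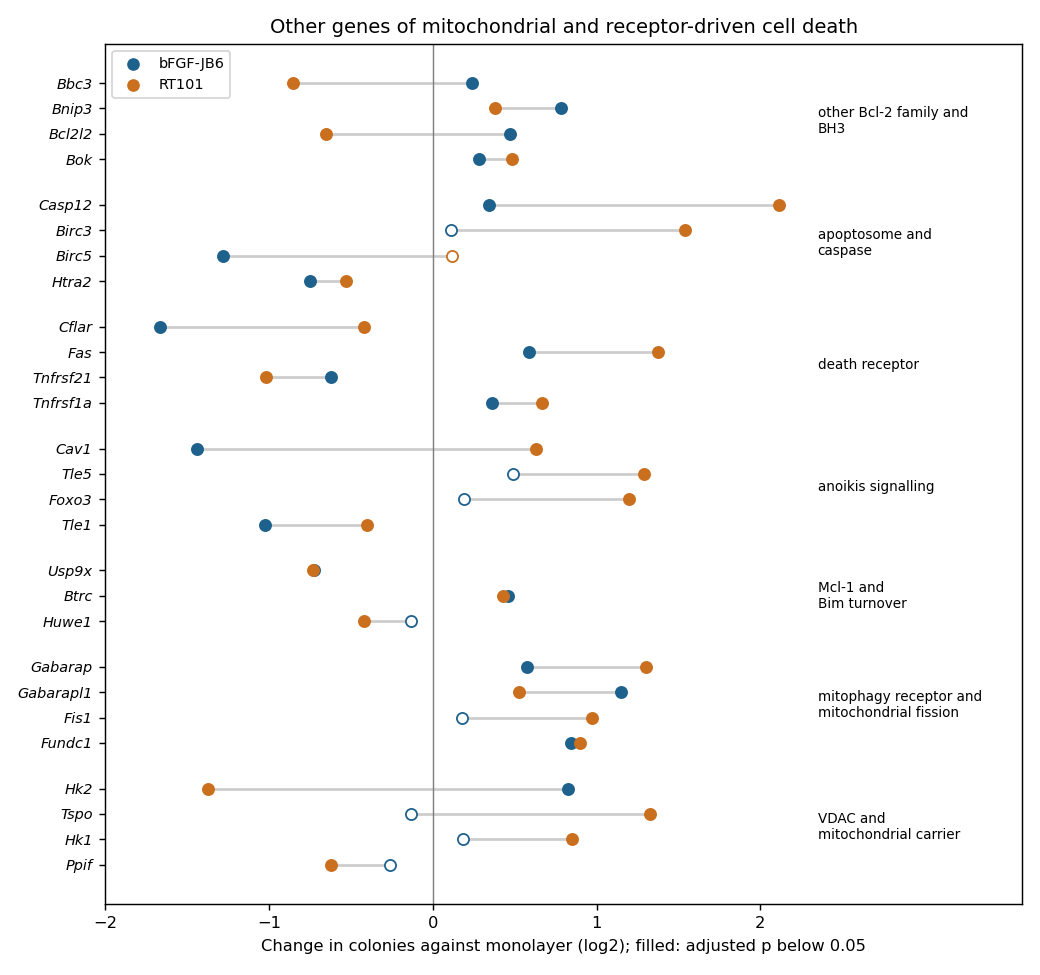
Log2 change in colonies against monolayer (horizontal axis) for the named genes of the other lists, in bFGF-JB6 and RT101 cells; filled points passed the limma test. Hk2 and Cav1 lie on opposite sides of 0 in the 2 lines, and Gabarap, Fundc1 and Fas lie above 0 in both.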

How the data were processed

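Values are log2 signals of probe sets, as the authors deposited them. They were made with RMA (version not given in the sources used here), per the submitters' processing notes. The log2 signals were used as they stand. Of 22690 probe sets 64 were controls, 20380 named 1 gene, 691 several and 1555 none; 12393 genes had a single-gene probe set and took the value of the brightest. limma 3.58.1 (R 4.3.3) fitted group means to all 11 arrays, with moderated variances (7 residual and 6.12 prior degrees of freedom) and a Benjamini-Hochberg threshold of 0.05. SE and intervals come from that model. The fit was tested on simulated data, where small changes were missed most often for the difference between lines. The members and gene lists were chosen with earlier results of these data known, and the motifs and windows after the members' values were seen. Named genes were all members and, per list, the up to 4 called genes with the largest colony change. Alternatives are in the closing section. Plots used matplotlib 3.10.9 in Python 3.11.15. Upstream windows are RefSeq sequences on GRCm38.p6. Array signals carry no counts, so the number of arrays limits the precision.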

Additional observations from a re-analysis of the deposited data

Results flagged for a closer look

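By limma's test of the difference itself (RT101 minus bFGF-JB6, log2), the change in colonies differed between the lines for 2 of 8 members and 30 of 102 measured genes of the other lists (29.4%), against 27.7% of all genes. Values are given for the 2 members and for the 16 of those 30 that the naming rule, based on the size of the colony changes, had picked. Among the members, Bcl2l11 differed by 2.60 (limma adjusted p = 9.45e-07) and Bad by 0.70 (adjusted p = 0.00142). Among genes of the family and its inhibitors and caspases, Bbc3 differed by -1.09, Bcl2l2 by -1.13, Birc5 by 1.40, Birc3 by 1.42 and Casp12 by 1.77. The Bcl2l2 and Birc3 values rest on the brightest probe set. The dimmer Bcl2l2 probe sets changed by -0.23 to -0.09 in bFGF-JB6 and by -0.52 to -0.09 in RT101 colonies. The dimmer Birc3 probe set gave 0.18 and 0.05. Among receptor and anoikis genes, Cflar differed by 1.24, Fas by 0.79, Cav1 by 2.07, Foxo3 by 1.01 and Tle1 by 0.63, where the Tle1 value was 0.11 (adjusted p = 0.547) with the mean of its probe sets and 0.53 (adjusted p = 0.0772) without RT101 monolayer replicate 2. The Foxo3 value rests on the brightest probe set, and a second one rose by 0.34 in bFGF-JB6 and 0.82 in RT101 colonies. Among mitochondrial genes, Hk2 differed by -2.20, Hk1 by 0.66, Tspo by 1.46, Fis1 by 0.79, Gabarap by 0.73 and Gabarapl1 by -0.62. These 18 genes' adjusted p-values ran from 1.30e-07 (Hk2) to 0.0147 (Tle1).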

How the results depend on the processing

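Over the 8 members and 5 comparisons, 726 alternative values were computed, of which 643 kept direction and side of the threshold. Bcl2l11 kept both in all alternatives for the bFGF-JB6 colonies (18), RT101 colonies (17), the difference between lines (22) and the monolayers (17); Bid kept them in both colony comparisons except under a 2-fold minimum. Testing all probe sets separately called 5986, 6451, 5260, 9093 and 8965 (bFGF-JB6 colonies, RT101 colonies, their difference, lines in monolayers, lines in colonies), and a 2-fold minimum called 432, 717, 968, 1518 and 1247 genes and 1, 1, 1, 1 and 0 members. Leaving out 1 array at a time called 3 to 4 members in RT101 colonies and 3 to 6 between the lines in monolayers. With a replicate block by title number the counts of genes were 3550, 3887, 3290, 5391 and 5291, with 2, 4, 2, 6 and 6 members, and the block by description letter gave 3686, 3912, 3362, 5366 and 5420, with 3, 4, 2, 5 and 6 members. Deviations of same-numbered arrays correlated at -0.34 to 0.32, and 4 of 11 arrays correlated best with their own number (5 of 11 with their own letter). Same-lettered arrays had a median correlation of 0.111, against -0.044 for different letters. Between bFGF-JB6 and RT101 colonies, same-numbered arrays correlated at 0.320, 0.111 and 0.225, and differently numbered ones at -0.233 to 0.018. The 2 RT101 monolayer arrays deviate as mirror images, so their pairs cannot inform on pairing. Whether arrays share a batch was not tested.

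Some values changed sign. Bak1 in RT101 colonies was -0.014 with the letter block, and in bFGF-JB6 colonies it was 0.046 with the mean of probe sets, 0.12 with array weights and 0.40 without the 2 raised 3' arrays, where its difference between lines was -0.27. With the mean of probe sets the difference was 0.049 for Bcl2l1 and 0.058 for Btrc (-0.032 otherwise), and in bFGF-JB6 colonies Bcl2l2 was -0.011 and Huwe1 0.19. Differences between lines near 0 also turned: with the title block Usp9x was 0.025, Btrc 0.0023 and Fundc1 -0.0058 (-0.0066, -0.032 and 0.055 otherwise), and Usp9x was 0.0040 with loess. Leaving out single arrays moved Bak1 over -0.40 to 0.27 (bFGF-JB6), -0.085 to 0.36 (RT101) and -0.13 to 0.54 (difference), Bcl2l1 over -0.21 to 0.032 (difference), Usp9x over -0.14 to 0.12, Btrc over -0.15 to 0.050 and Fundc1 over -0.028 to 0.22 (differences), Bcl2 over -0.16 to 0.043 (lines in colonies) and Birc3 over -0.0034 to 0.26 (bFGF-JB6). The cause of these changes was not tested. Signals carry no depth; Bmf lies near the bottom of the scale, where folds are compressed.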
